A study of Mus musculus with 12 samples.

Results

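Exon arrays carry separate probe sets for most exons of a gene, so that a stretch of a transcript can be measured apart from the rest of it. The probe sets described here are those whose signal, set against the median signal of their own gene, was higher or lower in sorted hair follicle bulge keratinocytes than in other basal keratinocytes of mouse back skin. For every array, the log2 signal of a probe set minus the median log2 signal of all probe sets of its gene gave its relative signal. A probe set was a member when its mean relative signal differed between the 2 populations by at least 0.7 on the log2 scale in each genotype, in the same direction, and when the 6 arrays of one population did not overlap the 6 of the other. The gene had to hold at least 6 probe sets and to have a median log2 signal above 8 in all 12 arrays, which left 20946 eligible probe sets in 1405 genes. Of these, 47 were members (0.224%), and they lay in 31 genes. The members were thus chosen by the difference in relative signal between the populations, which is described below without a test.

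The bulge is the part of the hair follicle that houses its stem cells, which in mice carry the surface protein CD34. ITGA6, integrin α6, anchors basal keratinocytes to the basement membrane. Most genes with several exons can be transcribed from more than 1 start site, spliced in more than 1 way or ended at more than 1 site, and proteins that bind RNA, among them the SR proteins, the hnRNPs and the kinases that phosphorylate SR proteins, select which exons are kept.

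The arrays fell into 4 groups of 3, which the labels call biological replicates, from female mice aged 9.5 weeks. WT CD34+ITGA6+ and WT ITGA6+ keratinocytes came from wild-type mice. The same populations came from K14ΔNLef1 mice, in which the keratin 14 promoter drives, in basal keratinocytes, a Lef1 that lacks the amino terminus that binds β-catenin, while the endogenous Lef1 gene is still present. The study describes the ITGA6+ population as CD34-negative, so both populations express ITGA6 and differ in CD34.

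Cd34 followed the titles. It had a mean log2 gene median of 11.81 ± 0.17 in WT and 11.40 ± 0.27 in K14ΔNLef1 CD34+ITGA6+ cells, against 5.37 ± 0.12 and 5.33 ± 0.23 in ITGA6+ cells (SD, n = 3 each). Itga6 was high in all groups but not level. It was 10.59 ± 0.18 in WT and 10.91 ± 0.24 in K14ΔNLef1 CD34+ITGA6+ cells, against 11.69 ± 0.16 and 11.60 ± 0.15 in ITGA6+ cells. A free-text field of the labels names the populations the other way round and was not used. Lef1 was 12.58 ± 0.09 and 12.65 ± 0.08 in the transgenic groups and 6.51 ± 0.56 and 6.21 ± 0.21 in WT (SD, n = 3 each), in the order CD34+ITGA6+, ITGA6+. All 6 keratinocyte markers lay above the array median in every array. In CD34+ITGA6+ cells all 6 genes listed as bulge markers and measured did so. In ITGA6+ cells 2 of 6 were above the array median, Sox9 and Tcf4 (the gene of that symbol, not Tcf7l2). No immune or endothelial marker of the 6 and 3 measured was above it throughout any group. Mitf was the 1 melanocyte marker of 6 above it, in CD34+ITGA6+ cells only, and 2 of 6 fibroblast markers in WT and 3 of 6 in K14ΔNLef1 were above it in CD34+ITGA6+ cells, against 0 and 1 in ITGA6+ cells. The summed linear signal of 4 suprabasal markers was 1916 to 4436 in CD34+ITGA6+ arrays and 5268 to 7900 in ITGA6+ arrays, mainly through Krt10. Krt10 had log2 means of 11.20 in WT and 11.70 in K14ΔNLef1 CD34+ITGA6+ cells, against 12.63 and 12.12 in ITGA6+ cells. Ivl had group means of 4.83 to 5.38 and hardly differed. The 6 melanocyte markers summed to 1048 to 1630 against 425 to 575, which differed mainly through Mitf. Its log2 means in WT and K14ΔNLef1 were 10.17 and 10.05 in CD34+ITGA6+ cells, against 7.60 and 7.34 in ITGA6+ cells. The other melanocyte markers had group means of 4.80 to 6.93 in CD34+ITGA6+ cells and 4.97 to 6.97 in ITGA6+ cells. The 6 immune markers summed to 389 to 640 in WT and 491 to 845 in K14ΔNLef1 CD34+ITGA6+ arrays. In ITGA6+ arrays they summed to 320 to 376 and 375 to 670. The part of suprabasal, melanocyte, immune and fibroblast signal in the results below was not tested. In sorted bulk RNA, fewer cells of a type and less RNA per cell cannot be told apart.

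Of the 47 members, 34 were relatively higher in CD34+ITGA6+ cells, by 0.75 to 2.70 in the mean of both genotypes (median 1.004), and 13 were relatively lower, by a mean difference of -2.09 to -0.74 (median -1.10). Over all eligible probe sets the median difference was 0.01. The 6 against 6 arrays failed to overlap, with the same direction in both genotypes, for 246 eligible probe sets (1.17%), 165 of them higher and 81 lower, and 199 of these missed the threshold of 0.7 in 1 or both genotypes. Just inside the threshold stood Fgfr2 probe set 4338696 (0.71 in WT and 0.80 in K14ΔNLef1), Krt17 probe set 5228869 (1.04 and 0.71) and Ubr3 probe set 4684391 (-0.72 and -0.77). Just outside stood Rbfox2 probe set 5479607 (0.69 and 1.18), Ip6k2 probe set 4883331 (0.69 and 0.84) and Tfap2b probe set 5066225 (-1.18 and -0.67).

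**Figure D1:**
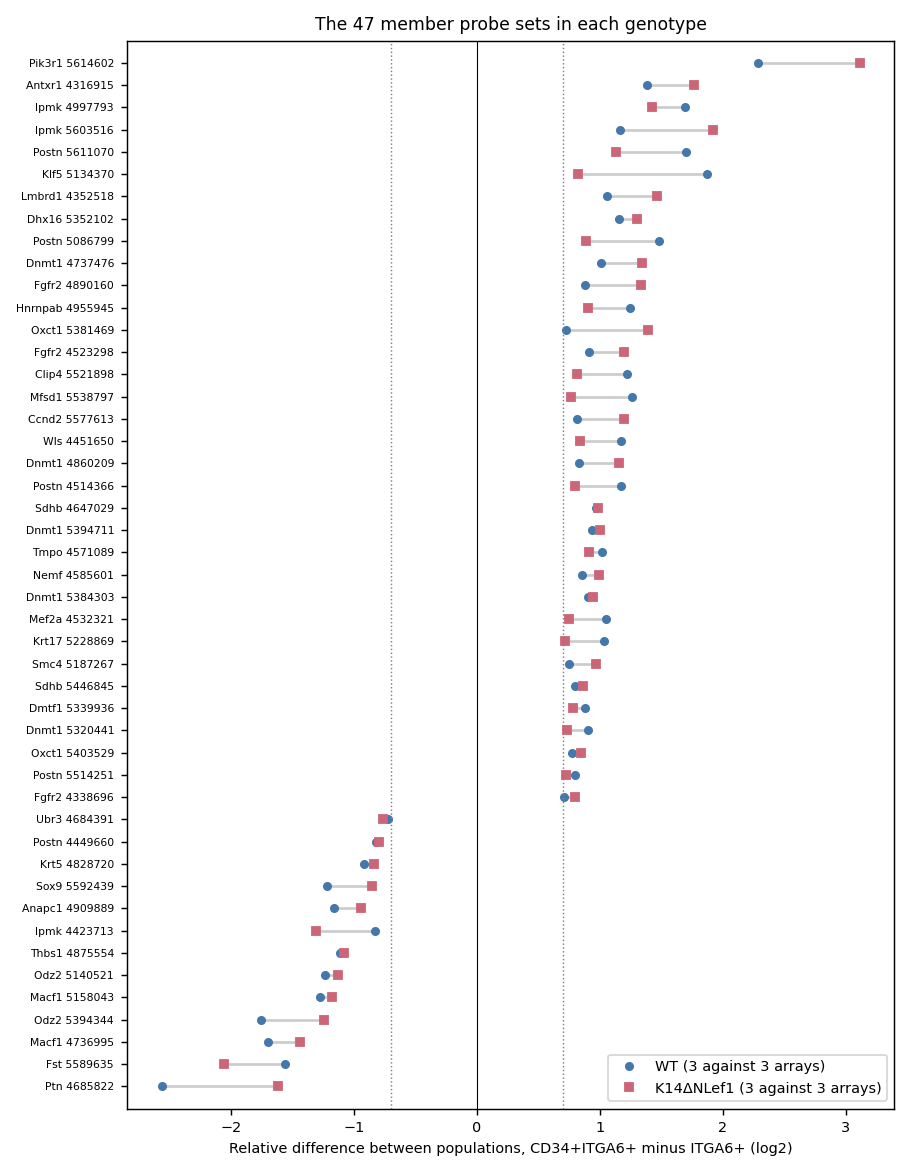
Difference in relative signal between populations, CD34+ITGA6+ minus ITGA6+ (log2, x axis), of each of the 47 members (rows, gene symbol and probe set number), as circles for WT and squares for K14ΔNLef1, each from 3 against 3 arrays. Dotted lines mark the threshold of 0.7, and values run from -2.56 for Ptn to 3.11 for Pik3r1.

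A relative difference can come with a change of the probe set itself, of the rest of its gene, or of both, and the members were of all 3 kinds. In 12 members the probe set's own signal differed by 0.7 or more in the same direction in both genotypes (25.5%, against 6.14% of all eligible probe sets). In 24 members (51.1%, against 57.0%) its own signal differed by less than 0.5 in both. The other 11 lay between. In 32 members (68.1%, against 4.49% of eligible probe sets) the gene median differed between populations by 0.7 or more in the same direction in both genotypes, and 35 members (74.5%, against 34.6%) had a relative difference opposite in sign to that of their gene. A nearly constant own signal together with a gene median that differed by 0.7 or more described 22 of the 47 members and 53 of all 20946 eligible probe sets (0.253%). For these 22 members the signal that differed between the populations was that of the other probe sets of the gene, and they can be called differently used exons only relative to the gene. These shares use the contrast that chose the members and are descriptions.

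**Figure D2:**
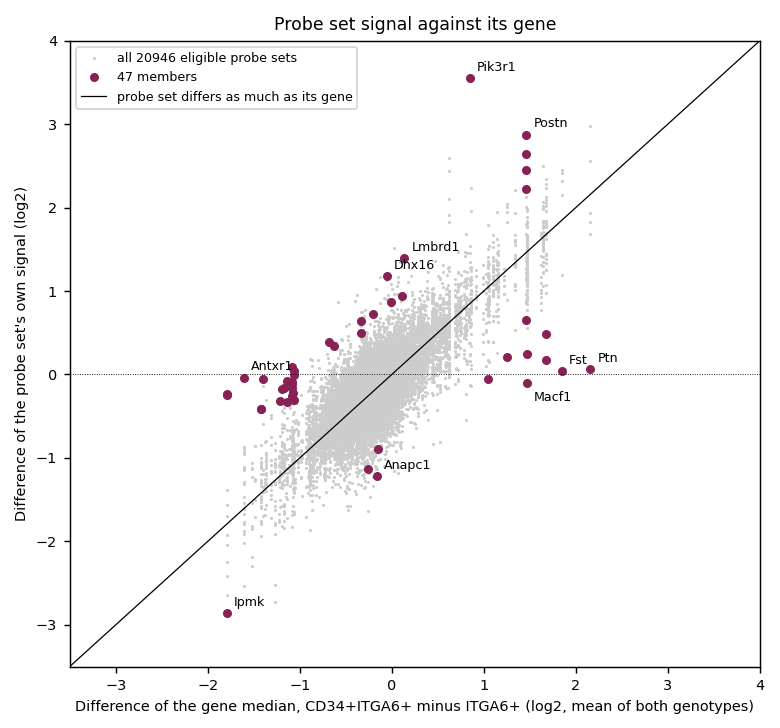
Difference between populations (CD34+ITGA6+ minus ITGA6+, log2, mean of both genotypes) of each probe set's own signal (y axis) against that of its gene median (x axis), for all 20946 eligible probe sets (grey) and the 47 members (purple). Members near the dotted line at 0, such as Antxr1, Ptn and Fst, had an almost constant own signal in genes that differed, while Dhx16, Lmbrd1 and Anapc1 differed in genes that hardly did.

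Among the members whose own signal differed, Pik3r1 had the largest relative difference. It encodes the regulatory subunit of phosphatidylinositol 3-kinase and is known to give a long and shorter proteins from different start sites. Probe set 5614602 had log2 signals of 9.75, 9.63 and 9.34 in WT CD34+ITGA6+ arrays and 8.32, 7.24 and 8.17 in K14ΔNLef1 CD34+ITGA6+ arrays. In ITGA6+ arrays it was 5.55, 6.09 and 5.80 in WT and 5.83, 3.86 and 4.02 in K14ΔNLef1. All 6 CD34+ITGA6+ arrays were thus above all 6 ITGA6+ arrays, and its own signal differed by 3.76 in WT and 3.34 in K14ΔNLef1. The probe set was above the array median in 5 arrays. The gene median differed by 1.47 in WT and 0.23 in K14ΔNLef1, and the relative differences were 2.29 and 3.11. The 19 other Pik3r1 probe sets had relative differences of -0.98 to 0.69 in the mean of both genotypes, so that this 1 stood well apart from the rest of its gene.

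Periostin (Postn), a secreted matrix protein whose transcripts are known to vary near the carboxy-terminal end, held 5 members, 4 relatively higher and 1 relatively lower. The gene as a whole was higher in CD34+ITGA6+ cells, by 1.65 in WT and 1.27 in K14ΔNLef1. Probe set 5611070 gave log2 signals of 12.72, 12.66 and 12.50 in WT and 12.26, 12.41 and 12.19 in K14ΔNLef1 CD34+ITGA6+ arrays, against 9.30, 9.51 and 9.02 and then 10.16, 10.10 and 9.39 in ITGA6+ arrays of the 2 genotypes. Its own difference of 3.35 in WT and 2.40 in K14ΔNLef1 was larger than that of the gene. The 3 further higher members, 5086799, 4514366 and 5514251, had own differences of 3.13 and 2.16, 2.82 and 2.07, and 2.45 and 1.997. Probe set 4449660, the relatively lower one, was also higher in CD34+ITGA6+ cells, but only by 0.83 and 0.47. Its means were 13.47 in WT and 13.48 in K14ΔNLef1 CD34+ITGA6+ cells, against 12.64 and 13.00 in ITGA6+ cells. It was in the top 10% in all 12 arrays, as was 5514251. Every Postn member was therefore higher in CD34+ITGA6+ cells, and they differed in how much. The 17 other probe sets ran from -0.60 to 0.77 in relative difference, adjoining the members on both sides.

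Few members belonged to genes that were level between the populations. In 8 members (17.0%, against 47.9% of eligible probe sets) the gene median differed by less than 0.35 in both genotypes. Dhx16, an RNA helicase of the spliceosome, showed this pattern. Probe set 5352102 was 7.81, 7.37 and 7.43 in WT and 8.22, 8.10 and 7.50 in K14ΔNLef1 CD34+ITGA6+ arrays. The ITGA6+ arrays had 6.30, 6.36 and 6.54 in WT and 6.16, 7.13 and 6.87 in K14ΔNLef1, all below the CD34+ITGA6+ arrays. Its own differences were 1.14 and 1.22 while the gene median differed by -0.02 and -0.08. The 17 other Dhx16 probe sets had relative differences of -0.63 to 0.46.

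Lmbrd1, a lysosomal membrane protein needed for the export of vitamin B12, had 1 member, 4352518, with own differences of 1.40 in WT and 1.39 in K14ΔNLef1 in a gene that differed by 0.35 and -0.07. Its own signal was 7.04 to 7.86 in the 6 CD34+ITGA6+ arrays and 5.30 to 6.32 in the 6 ITGA6+ arrays, which did not overlap. Dmtf1, a transcription factor that binds D-type cyclins, had member 5339936 with own differences of 1.12 and 0.75, its gene differing by 0.25 and -0.03. It was 10.34 to 11.09 in CD34+ITGA6+ arrays and 9.54 to 10.22 in ITGA6+ arrays.

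Anapc1, a subunit of the anaphase-promoting complex, had the reverse pattern. Probe set 4909889 was 5.84, 5.48 and 7.11 in WT and 6.34, 6.67 and 5.74 in K14ΔNLef1 CD34+ITGA6+ arrays. It was 7.46, 7.28 and 7.42 in WT and 7.30, 7.36 and 7.65 in K14ΔNLef1 ITGA6+ arrays. The CD34+ITGA6+ arrays were all lower, by a mean own difference of -1.24 and -1.19, and more scattered, in a gene that differed by -0.08 and -0.25. The 50 other Anapc1 probe sets had relative differences of -0.78 to 0.80. Ubr3, a ubiquitin ligase, had member 4684391 with own differences of -1.005 and -0.77 (gene -0.29 and -0.01). Krt5, the basal partner of keratin 14, had member 4828720 with own differences of -1.14 and -1.13 (gene -0.22 and -0.29). The 12 other Krt5 probe sets lay within -0.37 to 0.20. Among the members in level genes, Dmtf1 and Krt17 were above the array median in 12 arrays, Ubr3 in 11 and Krt5 in 8. Dhx16 was above it in 5, Lmbrd1 in 2, Anapc1 in 1 and Nemf in 0.

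**Figure D3:**
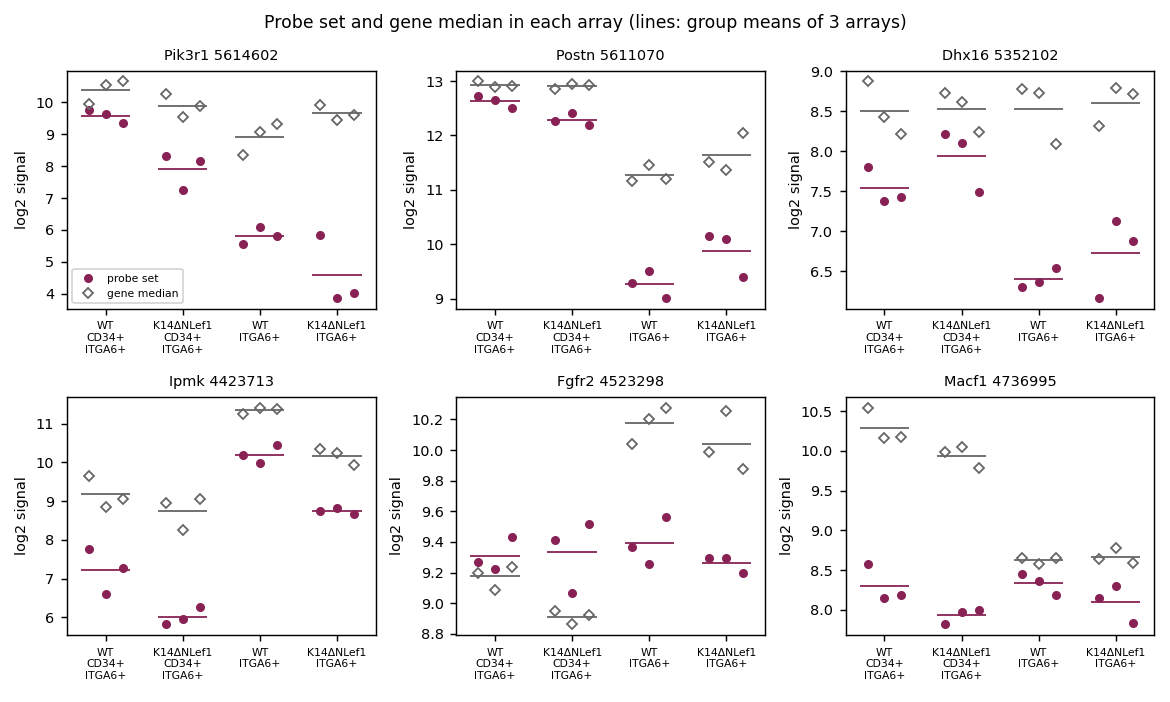
Log2 signal of 6 members (filled circles) and of their gene medians (open diamonds) in each of the 12 arrays, by group; horizontal lines are group means of 3 arrays. The Pik3r1, Postn and Dhx16 probe sets were higher in all CD34+ITGA6+ arrays, the Ipmk probe set was lower, and those of Fgfr2 and Macf1 stayed within a narrow range while their gene medians differed; the height of a probe set and of its gene median are not comparable with each other.

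Ipmk, inositol polyphosphate multikinase, had members on both sides. Its gene median was lower in CD34+ITGA6+ cells by a difference of -2.16 in WT and -1.42 in K14ΔNLef1. Probe set 4423713 differed more than the gene, with own differences of -2.99 and -2.73. It was 7.76, 6.61 and 7.27 in WT and 5.82, 5.94 and 6.26 in K14ΔNLef1 CD34+ITGA6+ arrays, and 10.19, 9.98 and 10.45 in WT and 8.74, 8.83 and 8.66 in K14ΔNLef1 ITGA6+ arrays. Both populations were therefore lower in K14ΔNLef1 than in WT, without overlap. Probe set 4997793 hardly followed the gene, with own differences of -0.47 and 0.00, and probe set 5603516 differed in opposite directions in the genotypes, by -0.999 and 0.498. The 8 other Ipmk probe sets had relative differences of -0.86 to 0.41.

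Dnmt1, which copies DNA methylation to the new strand after replication, held 5 members, all relatively higher. Its gene median was lower in CD34+ITGA6+ cells, by a difference of -1.03 and -1.14. The own signals of probe sets 4737476, 4860209, 5394711, 5384303 and 5320441 differed between the populations by -0.41 to 0.20 in either genotype. Probe set 4737476 had 7.82, 7.53 and 7.94 in WT and 8.17, 7.83 and 7.93 in K14ΔNLef1 CD34+ITGA6+ arrays, against 7.74, 8.04 and 7.55 and then 7.74, 7.96 and 7.62 in ITGA6+ arrays. These own signals overlapped between the populations. They spanned the range of the array, since probe set 5320441 was below the array median in all 12 arrays and 5384303 was among the top 10% of probe sets in all 12. The 33 other Dnmt1 probe sets had relative differences of -0.74 to 0.93, so that the members were the upper end of a continuous spread.

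Fgfr2, a receptor for fibroblast growth factors with an epithelial and a mesenchymal splice form, held 3 members that were all relatively higher, in a gene with a median difference of -0.999 and -1.13. Probe set 4523298 had 9.27, 9.22 and 9.43 in WT and 9.41, 9.07 and 9.51 in K14ΔNLef1 CD34+ITGA6+ arrays. The ITGA6+ arrays gave 9.36, 9.25 and 9.56 in WT and 9.30, 9.29 and 9.20 in K14ΔNLef1, within the same range. Its own differences were -0.09 and 0.07, those of 4890160 were -0.12 and 0.21, and those of 4338696 were -0.29 and -0.33. Probe set 4890160 was below the array median in all 12 arrays, and 4338696 was in the top 10% in all 12. The 21 other probe sets had relative differences of -0.61 to 0.62. Which of these probe sets lie on the exons of the 2 splice forms was not examined, since positions of the probe sets were not used here.

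A further 9 relatively higher members, 1 in each of 9 genes, showed the same combination of a steady own signal (differences under 0.5 in both genotypes) and, except for Klf5 and Tmpo, a gene median lower by 0.7 or more in CD34+ITGA6+ cells. Antxr1, a collagen-binding receptor of anthrax toxin, was the clearest, since probe set 4316915 differed by -0.01 and -0.06 and its gene by -1.39 and -1.83. Its own signal was 7.28 to 7.98 in CD34+ITGA6+ arrays and 7.29 to 7.86 in ITGA6+ arrays, while the gene medians were 8.74 to 9.63 and 10.78 to 11.20. Klf5, a zinc finger transcription factor of proliferating epithelia, had member 5134370 with own differences of -0.33 and 0.22 in a gene that differed by -2.20 in WT and -0.60 in K14ΔNLef1. Of its 7 other probe sets, 2 had a relative difference of 0.7 or more, the higher of them 1.27, close to that of the member (1.35).

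Ccnd2 probe set 5577613 (cyclin D2, which drives entry into the cell cycle) had own differences of -0.48 and -0.35 against -1.29 and -1.55 for its gene. Wls probe set 4451650 (the carrier of Wnt proteins to the cell surface) had 0.01 and -0.34 against -1.16 and -1.17. Mef2a probe set 4532321 (a MADS-box transcription factor) had -0.37 and -0.27 against -1.42 and -1.02. In each, the probe set differed less than its gene. The same held for Mfsd1 probe set 5538797, a lysosomal transporter, for Smc4 probe set 5187267, a core subunit of condensin, for Oxct1 probe set 5381469, an enzyme of ketone body use, and for Tmpo probe set 4571089, a lamina-associated protein, whose own differences were -0.34 to 0.47 and whose genes differed by -1.60 to -0.55.

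The mirror image, a steady probe set in a gene that was higher in CD34+ITGA6+ cells, made up 6 of the 13 relatively lower members. Pleiotrophin (Ptn), a heparin-binding growth factor, had the lowest value of all. Its probe set 4685822 gave log2 signals of 4.57, 4.68 and 4.47 in WT and 4.60, 4.43 and 4.39 in K14ΔNLef1 CD34+ITGA6+ arrays, and 4.82, 4.29 and 4.56 in WT and 3.79, 5.30 and 3.98 in K14ΔNLef1 ITGA6+ arrays. These overlapped and were below the array median throughout, while the gene median differed by 2.58 and 1.73. The relative differences of -2.56 and -1.61 thus came with own differences of 0.02 and 0.12. The 5 other Ptn probe sets had own differences of 1.69 to 2.98 in the mean of both genotypes.

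Fst, follistatin, an inhibitor of activin known to be made in a long and a short form, had member 5589635 with own differences of 0.31 and -0.23 in a gene that differed by 1.87 and 1.83. Its own signal was 7.91 to 8.56 in CD34+ITGA6+ arrays and 7.65 to 8.59 in ITGA6+ arrays. The 5 other Fst probe sets were all higher in CD34+ITGA6+ cells, by 1.20 to 2.45. Sox9, a transcription factor that is itself a bulge marker, had member 5592439 with own differences of 0.21 and 0.22 and a gene difference of 1.42 and 1.08.

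Macf1, a large protein that links actin filaments and microtubules and has many known isoforms, had 94 probe sets and 2 members. Probe set 4736995 was 8.57, 8.15 and 8.18 in WT and 7.82, 7.97 and 8.003 in K14ΔNLef1 CD34+ITGA6+ arrays, and 8.45, 8.37 and 8.19 in WT and 8.15, 8.30 and 7.83 in K14ΔNLef1 ITGA6+ arrays. These overlapped, whereas the gene median differed by 1.66 and 1.27. Its relative differences were -1.70 and -1.43, and those of probe set 5158043 were -1.27 and -1.18. The 92 other Macf1 probe sets had relative differences of -0.91 to 0.52, so that both members lay below all of them. Odz2, a transmembrane teneurin, had 2 members, of which 5394344 was steady (own differences 0.14 and 0.21) and 5140521 differed by 0.66 and 0.32, in a gene that differed by 1.89 and 1.45.

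**Figure D4:**
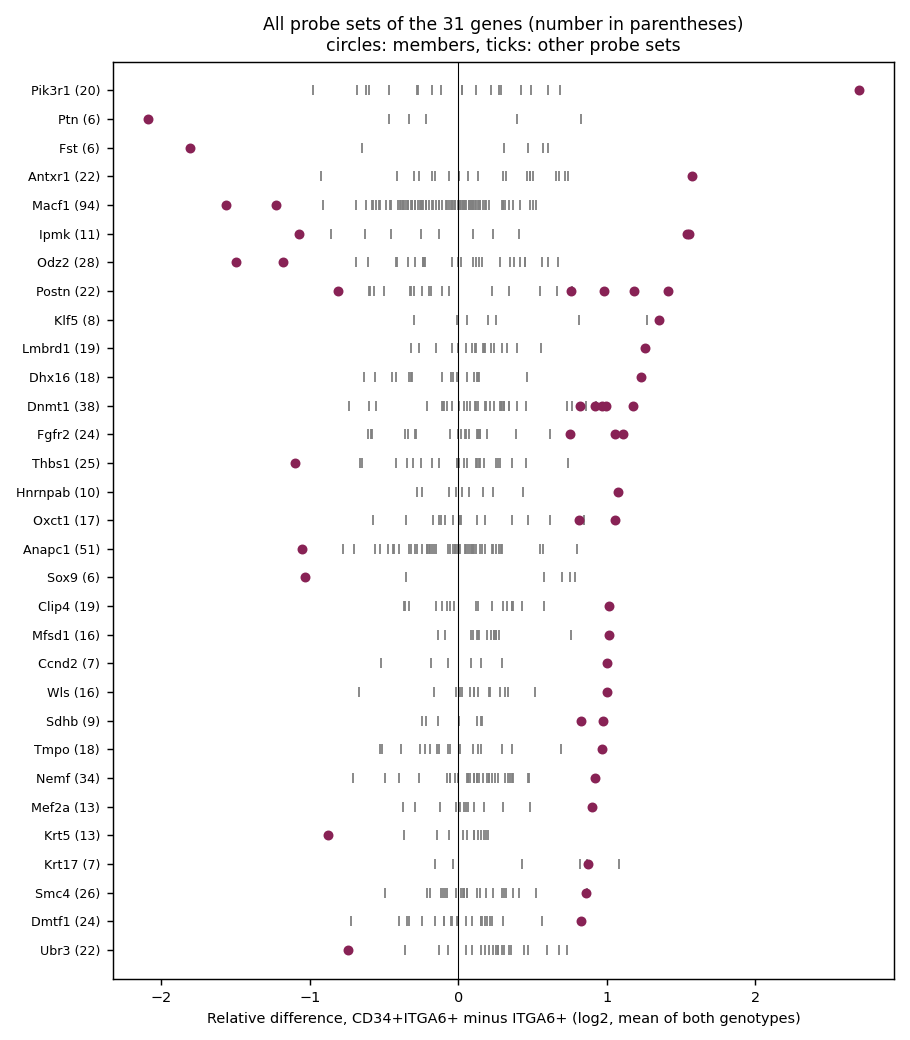
Relative difference between populations (CD34+ITGA6+ minus ITGA6+, log2, mean of both genotypes, x axis) of every probe set of the 31 genes, 1 row a gene with its number of probe sets in parentheses. Circles are members and ticks are the other probe sets; Pik3r1, Ptn, Fst and Macf1 members stand apart from their genes, whereas those of Dnmt1 and Postn adjoin the other probe sets.

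The remaining members lay between the 2 patterns. Both Sdhb members, from the iron-sulfur subunit of succinate dehydrogenase, were higher in CD34+ITGA6+ cells, 4647029 by 0.67 and 0.60 and 5446845 by 0.50 and 0.48, in a gene that differed by -0.29 and -0.38. Hnrnpab probe set 4955945, from an RNA-binding protein, differed by 0.52 and 0.25 (gene -0.72 and -0.65). Krt17 probe set 5228869, from a keratin of the outer root sheath, differed by 1.27 and 0.47, and 3 of its 6 other probe sets also had a relative difference above 0.7, up to 1.08. Nemf probe set 4585601, from a protein of ribosome quality control, differed by 0.63 and 0.82 at log2 signals of 2.27 to 4.15, below the array median in all 12 arrays. Clip4 probe set 5521898, from a microtubule-binding protein family, differed by -0.70 and -0.11 (gene -1.92 and -0.93), and Oxct1 probe set 5403529 by -0.07 and -0.59 (gene -0.85 and -1.44). Thbs1 probe set 4875554, from the matrix protein thrombospondin 1, differed by -0.78 in WT and 0.68 in K14ΔNLef1 in a gene that differed by 0.33 and 1.77.

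Members clustered in genes. Of the 31 genes, 23 held 1 member, 4 held 2 (Macf1, Odz2, Oxct1 and Sdhb) and 4 held 3 or more (Dnmt1, Postn, Fgfr2 and Ipmk), so that 24 of 47 members shared a gene with another and a gene median with it, and are not independent of each other. The median number of probe sets in a member's gene was 22 (6 to 94), against 17 over all eligible probe sets. By signal level, 28 members (59.6%, against 74.3% of eligible probe sets) were above the array median in all 12 arrays, 15 (31.9%, against 20.4%) in 1 to 11 arrays, and 4 (8.51%, against 5.30%) in none, which were those of Ptn, Nemf, Fgfr2 (4890160) and Dnmt1 (5320441). The top 10% of an array held 10 members (21.3%, against 19.3%) throughout.

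Signal level was set beside how far a probe set followed its gene. Among the 940 eligible probe sets of genes whose median differed by 0.7 or more in both genotypes, the 24 that were never above the array median had a median own difference of 0.79 in the direction of the gene, the 214 above it in some arrays had 1.18, the 539 above it in all arrays but not always in the top 10% had 1.11, and the 163 always in the top 10% had 0.89. The dimmest and the brightest class had median relative differences of -0.40 and -0.28 in the gene's direction, against 0.02 and -0.03 between. The classes were formed on the arrays of both populations. A probe set with a large own difference can less easily stay in the dimmest or the brightest class. The classes thus depend in part on the difference they are set beside, and these values are descriptions. These 4 classes held 3, 8, 13 and 8 members. The part of signal level in the members' values was not tested.

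The genes listed as having well-known alternative isoforms were examined as a group. Of the 59 listed genes, 23 were eligible, with 585 probe sets, of which 6 were members (1.03%, against 0.224% of all eligible probe sets), in Fgfr2, Macf1 and Mef2a. The median size of the relative difference was 0.15 over the list and 0.15 over all eligible probe sets. In the mouse promoter table of RefSeq (GRCm38.p6), 22 of the 31 member genes were matched by symbol and 6 of these (27.3%) had 2 or more start sites, against 255 of 1171 matched eligible genes (21.8%).

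The same measure can be tested where the choice and the test use different arrays. In WT arrays alone, 567 eligible probe sets had a mean difference of at least 0.7 and no overlap of 3 against 3 arrays, 288 higher and 279 lower. In the 6 K14ΔNLef1 arrays, 416 of them (73.4%) had the same sign, against 57.7% of all eligible probe sets with the same sign in both genotypes, and their median difference in the direction of the choice was 0.22, where it had been 0.89 in size in WT. None was called by limma at an adjusted p under 0.05 (background 0.00% of all eligible probe sets). At an unadjusted p under 0.05, 94 (16.6%) differed in the same direction, against 4.70% of all eligible probe sets. In the reverse, 518 probe sets chosen in K14ΔNLef1 arrays gave 365 (70.5%) of the same sign in WT arrays, a median of 0.23 against 0.85 where chosen, none called (background 0.00%), and 96 (18.5%) at an unadjusted p under 0.05, against 4.59%. A robust prior spread in limma also called none in either direction. Restricted to genes whose median differed by less than 0.35 in both genotypes, 121 of 180 (67.2%) and 104 of 173 (60.1%) kept their sign, against 56.1% in each case of the 10033 eligible probe sets of such genes. Of these, 19 (10.6%) and 21 (12.1%) had that sign at an unadjusted p under 0.05, against 3.20% and 2.92% of the 10033. The median difference of the 567 and 518 probe sets was smaller in the arrays not used for the choice.

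The rule for members did not use the direction of the genotype contrast, but its condition of no overlap between 6 and 6 arrays limits the spread between genotypes, so the members' shares and sizes in this contrast are a description. The contrast was tested by limma over the 20931 eligible probe sets that had any spread. In CD34+ITGA6+ cells no probe set was called between K14ΔNLef1 and WT (0.00%; 946 at an unadjusted p under 0.05, 4.52%), and in ITGA6+ cells none was called (0.00%; 1057, 5.05%), nor with a robust prior spread. Of the 47 members, 5 (10.6%, CD34+ITGA6+) and 6 (12.8%, ITGA6+) had an unadjusted p under 0.05, with a lowest adjusted p among members of 0.9996 and 0.533 (limma). The median size of the genotype difference was 0.16 and 0.18 for members and 0.18 and 0.18 for all eligible probe sets.

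Pik3r1 had the largest such difference in both populations. Its relative signal was -0.20, -0.92 and -1.32 in WT and -1.93, -2.29 and -1.71 in K14ΔNLef1 CD34+ITGA6+ arrays, and -2.78, -2.98 and -3.53 in WT and -4.10, -5.59 and -5.58 in K14ΔNLef1 ITGA6+ arrays. The genotypes did not overlap in either population, and K14ΔNLef1 minus WT was -1.17 ± 0.40 and -1.99 ± 0.40 (SE; limma adjusted p = 0.9996 and 0.533), so neither passed the adjustment. For Ipmk, the difference in CD34+ITGA6+ cells was -0.77 ± 0.24 for probe set 4423713 and 1.02 ± 0.37 for 5603516, and in ITGA6+ cells it was 0.74 ± 0.25 for 4997793. Ccnd2 had 0.60 ± 0.21 in CD34+ITGA6+ cells. In ITGA6+ cells, Postn probe set 5086799 had 0.64 ± 0.24, Clip4 0.61 ± 0.23 and Fst 0.58 ± 0.22. Klf5 differed by -0.53 ± 0.20 in CD34+ITGA6+ and 0.52 ± 0.20 in ITGA6+ cells (SE throughout). None of these passed the adjustment over all eligible probe sets.

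**Figure D5:**
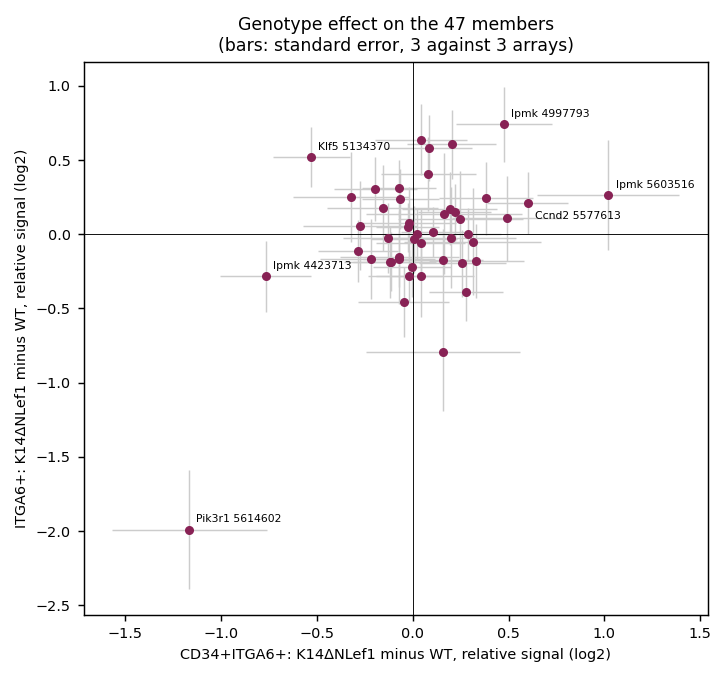
Genotype difference in relative signal, K14ΔNLef1 minus WT (log2), of the 47 members in CD34+ITGA6+ cells (x axis) and ITGA6+ cells (y axis); points are differences of 3 against 3 arrays and bars are standard errors from limma. Most members lie near 0, Pik3r1 lies at -1.17 and -1.99, and Klf5 has opposite signs in the 2 populations.

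The 31 genes as wholes were tested for the genotype effect on their median signal, over 5712 genes. In CD34+ITGA6+ cells 109 genes were called (1.91%) and 1 of the 31 was among them. Thbs1 was 9.14, 8.43 and 8.49 in WT and 10.15, 9.98 and 9.91 in K14ΔNLef1 CD34+ITGA6+ arrays, which did not overlap, and it rose by 1.33 ± 0.26 (SE; limma adjusted p = 0.0134). The call was lost when 1 of 3 arrays was left out, namely WT replicate 2, WT replicate 3 or K14ΔNLef1 replicate 1 (limma adjusted p = 0.0600, 0.0559 and 0.0564). In ITGA6+ cells Thbs1 differed by -0.11 ± 0.26.

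In ITGA6+ cells 303 genes were called (5.30%), 3 of the 31 among them, all lower in K14ΔNLef1. Clip4 was 10.40, 10.13 and 10.21 in WT and 9.08, 8.82 and 9.02 in K14ΔNLef1 ITGA6+ arrays, and fell by 1.27 ± 0.18 on the log2 scale (SE; limma adjusted p = 5.99e-04). Ipmk was 11.25, 11.41 and 11.39 in WT and 10.35, 10.23 and 9.94 in K14ΔNLef1, a difference of -1.18 ± 0.25 (limma adjusted p = 0.0118, and 0.0618 without K14ΔNLef1 ITGA6+ replicate 3). Neither gene overlapped between the genotypes. Mfsd1 differed by -0.74 ± 0.20 (limma adjusted p = 0.0472), a call that was lost under 8 of its 12 alternatives (adjusted p 0.0515 to 0.189). The Klf5 gene median had 0.86 ± 0.24 in CD34+ITGA6+ and -0.74 ± 0.24 in ITGA6+ cells, and neither passed (limma adjusted p = 0.110 and 0.109).

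Splicing regulators were read out at the level of the gene, as the genes that act on exon choice. Of 77 listed regulators 46 were in the table and 38 were tested. Between populations in WT, 2 of 38 were called (5.26%, against 17.2% of all genes), both lower in CD34+ITGA6+ cells, and both kinases of SR proteins. Clk4 differed by -0.69 ± 0.21 (SE; limma adjusted p = 0.0359) and Clk2 by -0.87 ± 0.28 (limma adjusted p = 0.0442). Both calls were lost with quantile normalization (limma adjusted p = 0.0740 and 0.0660), and without WT CD34+ITGA6+ replicate 1 or 2 or WT ITGA6+ replicate 1 or 3 (limma adjusted p 0.106 to 0.186). With the mean of a gene's probe sets, Clk2 differed by -0.27 and was not called (limma adjusted p = 0.235). Blocked on replicate number, the fit called 4 regulators in WT, namely Clk2 (limma adjusted p = 0.0146), Clk4 (limma adjusted p = 0.0484), the SR protein Srsf10 (-0.80, limma adjusted p = 0.0458) and the RNA-binding protein Hnrnpm (-0.52, limma adjusted p = 0.0467), all lower in CD34+ITGA6+ cells. With blocks kept within each genotype, 3 were called, Clk2, Clk4 and Srsf10 (limma adjusted p 0.0184 to 0.0389). In K14ΔNLef1, 1 of 38 was called (against 12.9% of all genes), Ptbp2, a repressor of exons with neuronal use, higher in CD34+ITGA6+ cells by 0.64 ± 0.19 (SE; limma adjusted p = 0.0371), which had 0.45 ± 0.19 in WT (limma adjusted p = 0.121). With the number as a block, across or within genotypes, 2 were called, Ptbp2 and Srpk2 (higher by 0.66). Leaving out any of 5 single arrays of the 6 ended the Ptbp2 call (limma adjusted p 0.0662 to 0.113).

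In both genotypes most tested regulators lay on the lower side in CD34+ITGA6+ cells, 33 of 38 in WT with a median difference of -0.26 and 29 of 38 in K14ΔNLef1 with a median of -0.25, beside medians of -0.17 and -0.15 over all genes tested. Those shares were 86.8% and 76.3%, and 66.6% and 65.8% of all genes tested also lay on the lower side. Centring each array on its median moved the differences of all genes up by 0.09 and 0.08. At an unadjusted p under 0.05, 9 regulators (23.7%) differed in WT and 6 (15.8%) in K14ΔNLef1, against 30.0% and 26.4% of all genes. For the genotype, 0 of 38 were called by limma in CD34+ITGA6+ cells (1.91% of all genes; 0 regulators at an unadjusted p under 0.05, and 0 in a fit blocked on replicate number). In ITGA6+ cells 1 of 38 was called (5.30% of all genes), Srpk2, another SR protein kinase, which fell by 1.04 ± 0.25 in K14ΔNLef1 (SE; limma adjusted p = 0.0268). That call was lost without WT ITGA6+ replicate 1 or 3 or K14ΔNLef1 ITGA6+ replicate 2 or 3 (limma adjusted p 0.0673 to 0.132).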

How the data were processed

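RNA of sorted back skin keratinocytes was amplified, labelled with biotin and hybridised to Affymetrix Mouse Exon 1.0 ST arrays, 3 for each of 4 groups. The deposited values are intensity values on a linear scale, which the authors made by robust multi-array averaging (RMA) with Affymetrix Power Tools on build mm9. Versions and the choice of the 114330 probe sets are not given in the sources used here. The columns named no other samples. RMA combines the probes of a probe set into 1 value by a robust fit after quantile normalization. Differences of very dim or very bright probe sets can be understated in such values.

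Values were taken to log2 with no pseudocount. The platform annotation gave 1 gene symbol to 109796 probe sets (96.0%), several to 836 and none to 3698, and only the first were used. Of 11297 symbols, 1240 were updated through RefSeq, 10030 were current and 27 were kept as given, Odz2 among them, because its older name matched more than 1 gene, which left 11287 genes. The array medians were 7.35 to 7.63 on the log2 scale and replicates of a group correlated at 0.909 to 0.936, with no identical arrays. The number of arrays limits the precision, and p-values measure the spread between 3 arrays a group.

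Genotype effects and the population effect of splicing regulators were fitted with limma 3.58.1 (R 4.3.3; lmFit, eBayes) on all 12 arrays with 4 group means and 8 residual degrees of freedom, and adjusted by Benjamini-Hochberg over all features. Probe sets chosen in one genotype were tested on the 6 arrays of the other. 15 probe sets that were their gene's median in every array had no spread and were left out. Gene medians were tested where they exceeded the array median in at least 3 arrays. The script was tested on simulated data. Whether probes also read related genes was not tested.

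The labels number the arrays of each group 1 to 3 and do not say what a number marks. Deviations of gene medians from the group means correlated at 0.11 to 0.23 between the 2 WT populations of the same number, over 0.1 in all 3 pairs. Different numbers gave -0.16 to 0.05. The main fits had no block, and blocked values are given beside them. In K14ΔNLef1 the values were 0.07 to 0.13 (different numbers -0.12 to -0.006). For relative signal they were 0.0976 to 0.238 in WT (-0.14 to 0.04) and 0.0729 to 0.0976 in K14ΔNLef1 (-0.07 to -0.02). These 3 sets held at least 1 pair under 0.1 each, but same-numbered pairs were above all others throughout. Probe sets chosen in WT or K14ΔNLef1 were tested unblocked. With the block none was called, and 104 and 103 kept their sign at an unadjusted p under 0.05 (limma).

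The text names the members with the 12 highest and 12 lowest differences, all members of genes with 3 or more, those nearest the threshold, those of known isoform genes and those with a genotype effect. The rest are named so that each member is accounted for. Alternatives were other normalizations, filters, gene values, thresholds, the replicate number as a block, and leaving out each array. The members and lists were chosen with earlier results of these data known.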

Additional observations from a re-analysis of the deposited data

Results flagged for a closer look

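Klf5 probe set 5134370 was the 1 member whose genotype effect ran in opposite directions in the 2 populations in every array. Its relative signal in K14ΔNLef1 minus WT was -0.53 in CD34+ITGA6+ cells, where all 3 transgenic arrays (-1.49, -1.12 and -1.17) were below all 3 WT arrays (-0.77, -0.40 and -1.02). In ITGA6+ cells it was 0.52, where all 3 transgenic arrays (-1.88, -2.07 and -2.30) were above all 3 WT arrays (-2.52, -2.60 and -2.69). The Klf5 gene median differed the other way round, by 0.86 and -0.74, and the probe set's own signal ranged from 7.68 to 8.72 over the 12 arrays. The difference between the populations was not tested. Groups of 3 arrays were not examined for single arrays that stand apart.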

How the results depend on the processing

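No member turned its direction under any alternative tried. Leaving out 1 array could not turn it, since the arrays of a member did not overlap between the populations. Only the other alternatives could test the direction. Over 748 values of the 47 members under the alternatives tried, 741 moved by less than the spread between replicates and 7 by more. Most of these values come from leaving out 1 array, which cannot move the mean of both genotypes by as much as that spread. Only the other alternatives could therefore move a value by more, and the 741 is no measure of stability. The number of members was 47, and it was 43 with quantile normalization (37 of the 47 among them), 50 with arrays centred on their median (45), 38 with the mean of a gene's probe sets (31), 54 with the median of its other probe sets (43), 39 with at least 10 probe sets a gene, 11 with a gene median above 9, 15 with a difference of at least 1, and 75 with 0.7 required only of the mean of both genotypes, a reading of the rule added after the data were seen. Leaving out 1 array gave 50 to 64 members, 40 to 47 of the 47 among them. Fewer arrays make the condition of no overlap easier to meet, so the higher counts do not show a stronger result. No member could fail that condition, and members were lost only through the threshold of 0.7.

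For the genotype effect on relative signal, no filter on the gene median gave 34 calls in CD34+ITGA6+ and 81 in ITGA6+ cells, and leaving out 1 array gave 0 to 2 in each. For gene medians in CD34+ITGA6+ cells, the 109 calls became 177 with the mean of the probe sets, 70 with only the 6 arrays compared and 71 to 106 without 1 array, and the 1 call among the 31 genes became 2 with quantile normalization, centring or the mean and 0 to 1 without 1 array. In ITGA6+ cells the 303 calls became 193 to 226 without 1 array (193 without K14ΔNLef1 replicate 3, 197 without WT replicate 3), and the 3 among the 31 genes became 1 to 3. Probe sets chosen in WT gave 0 to 1 call without 1 array. The number of splicing regulators called in WT, 2, was 1 with quantile normalization (Ptbp2, higher in CD34+ITGA6+ cells by 0.58, adjusted p = 0.0399, and neither Clk4 nor Clk2), 2 with the mean of the probe sets (Clk4 and Srpk1), 0 with centring, with the 6 arrays or with no filter, and 0 to 6 without 1 array. The number called in K14ΔNLef1, 1, was 2 with quantile normalization or centring, 0 with no filter and 0 to 1 without 1 array. The cause of these changes was not tested, beyond the fewer arrays or the different number of features tested.

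The labels give every group replicates 1 to 3. Over all same-numbered pairs of groups, the correlations of deviations from the group means were -0.13 to 0.24. With the replicate number as a block shared by all groups, the ITGA6+ genotype effect on relative signal gave 1 call, the WT regulators 4 and the K14ΔNLef1 regulators 2. A block within each genotype, added after the data were seen, gave 3 and 2. For the genotype effect, the block shared by all groups gave 0 calls for relative signal in CD34+ITGA6+ cells. It gave 113 and 293 for gene medians in CD34+ITGA6+ and ITGA6+ cells, and 1 and 3 among the 31 genes.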

Other observations

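Among the eligible genes of the isoform list without members, Dst, a relative of Macf1 that links the cytoskeleton, had 93 probe sets with relative differences up to 1.98 in the mean of both genotypes, in a gene that differed by 1.06 in WT and 0.18 in K14ΔNLef1. None of them met the rule. Numb, an inhibitor of Notch signalling, had 11 probe sets up to 0.98, Rbfox2, a splicing regulator, had 16 up to 0.94, and the others of these 20 genes had values of -0.91 to 0.87. Itga6, known for 2 splice forms of its cytoplasmic tail, had 22 probe sets within -0.45 and 0.47.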
